A study of Homo sapiens with 12 samples.

Results

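The C/EBP family and PU.1, the transcription factors that direct granulocytic and monocytic differentiation, were examined in RNA bound to argonaute 2 (AGO2) and in mock precipitates. The 7 genes were chosen by name, namely CEBPA, CEBPB, CEBPD, CEBPE, CEBPG, CEBPZ and SPI1, which encodes PU.1. Each has 1 row of its own among the 61782 gene rows of the deposited tables, and 0 of the 7 rows are joined with another gene.

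AGO2 carries the microRNA to the mRNAs it pairs with, and AGO2-RNA-immunoprecipitation (AGO-RIP) recovers RNA bound to it. The samples came from K562, a human erythroleukemia cell line, which per the methods of the study carried a C/EBPα fused to an estrogen receptor and inducible by β-estradiol (K562-C/EBPα-ER). The labels name K562 only, and neither they nor the description of the AGO-RIP mention β-estradiol. The cells were stably transduced with pLV-miR-143, to overexpress miR-143, or with pLV-control, and both populations were kept under puromycin. AGO2 antibody (AGO) or unspecific IgG (mock) was used on each population, giving the groups control_IgG, control_AGO, miR143_IgG and miR143_AGO with 3 samples each, 12 in all. Each table holds the authors' average FPKM of 1 group (fragment counts corrected for transcript length and for the mapped fragments of a library), so that there was 1 value per gene and group. No difference below has a replicate check, and no p-value or SD could be given. Input RNA was not analysed here, so a level in a precipitate is not the level in the cell, and fewer cells expressing a gene cannot be told apart from less RNA per cell.

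C/EBP proteins bind DNA as dimers through a basic leucine zipper (bZIP). C/EBPα starts the granulocytic program from myeloid progenitors, C/EBPε acts at its late steps, when secondary granules form, and C/EBPβ and C/EBPδ act in emergency granulopoiesis and inflammation. C/EBPγ lacks a transactivation domain and mainly forms heterodimers with other bZIP proteins. CEBPZ shares the name but encodes a CCAAT-binding protein of another family, without this zipper. PU.1 is an ETS factor needed for granulocytes, monocytes and B cells, and PU.1 and the erythroid factor GATA1 antagonize each other.

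In coordinates of GENCODE 29 (GRCh38), CEBPA (19:33299934-33302564, minus strand) and CEBPG (19:33373330-33382686, plus strand) are neighbours on chromosome 19 with 70.8 kb between them. CEBPB (20:50190734-50192689, plus strand), CEBPD and CEBPA consist of 1 exon each. CEBPE (14:23117304-23119616, minus strand) has 2 exons, SPI1 (11:47354860-47378576, minus strand) up to 5 and CEBPZ (2:37201612-37231713, minus strand) up to 16. The exons of 3 members overlap a gene on the other strand. A share of 25.0% of the exonic bases of CEBPA lies opposite AC008738.3 and 18.3% opposite AC008738.5. In CEBPB 11.8% lies opposite CEBPB-AS1, and in CEBPZ 9.67% opposite CEBPZOS, 11.2% opposite AC007390.2 and 2.29% opposite NDUFAF7. Since a strand-specific count is not stated, reads of these stretches cannot be assigned to 1 strand.

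To see which members a microRNA could pair with, the longest 3′ UTR annotated for each gene was searched for seed matches on the mRNA strand. The mature sequences are from RefSeq (GRCh38.p14), with the seed, bases 2 to 8, in capitals. The first is the overexpressed microRNA, and the others are known in myeloid cells. No pair of them shares a seed.
hsa-miR-143-3p: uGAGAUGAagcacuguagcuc
hsa-miR-155-5p: uUAAUGCUaaucgugauagggguu
hsa-miR-182-5p: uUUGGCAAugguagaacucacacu
hsa-miR-223-3p: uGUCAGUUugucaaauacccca

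None of the 7 members held a match to the miR-143-3p seed, searched as TCATCTCA (8mer) and as TCATCTC and CATCTCA, the 7-base matches inside it. The 3′ UTRs searched had 1404 bases in CEBPA, 618 in CEBPB, 402 in CEBPD, 183 in CEBPE, 2994 in CEBPG, 152 in CEBPZ and 418 in SPI1. Of 19120 3′ UTRs of coding genes, 22.2% held at least 1 such match. For comparison, MAPK7, the target the study followed up, holds an 8mer at 17:19383351-19383358. The members held 2 matches to the other seeds. CEBPB has an 8mer for miR-155-5p (AGCATTAA, containing AGCATTA and GCATTAA; a match in 15.5% of 3′ UTRs) at 20:50192625-50192632, plus strand. CEBPA has an 8mer for miR-182-5p (TTGCCAAA, containing TTGCCAA and TGCCAAA; 21.5%) at 19:33300264-33300271, minus strand. No member matched miR-223-3p (AACTGACA, containing AACTGAC and ACTGACA; 15.2%). Each site is given as 30 bases of the mRNA strand with the 8mer in capitals. A match is a description of the sequence only.
MAPK7, miR-143-3p site: attctgcaggtTCATCTCAgacccaccttt
CEBPB, miR-155-5p site: tttccgtttcaAGCATTAAgaacactttta
CEBPA, miR-182-5p site: tgctcggatacTTGCCAAAatgagactctc

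The precipitates differed in depth and composition, which touches every low value below. An FPKM above 0 was listed for between 8393 rows (control_IgG) and 12937 rows (miR143_AGO), and rows of 1 coding gene took 7.90% and 8.38% of the summed FPKM in the IgG groups against 42.0% and 37.2% in control_AGO and miR143_AGO. The fragments per library are unknown. Relative depth was therefore read from the low edge, the 10th lowest product of FPKM and transcript length, which falls as depth rises. Relative to miR143_AGO this edge was 1.07 times higher in control_AGO, 1.69 times in miR143_IgG and 13.3 times in control_IgG, the shallowest group. The MIR143 row followed the labels, with 118393 FPKM in miR143_AGO, 44781 FPKM in miR143_IgG and 0 in control cells.

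PU.1 and C/EBPβ accounted for most of the family's signal. SPI1 had the highest FPKM of the 7 members in 4 of 4 groups and CEBPB the next highest in 4 of 4, while CEBPA, the gene of the inducible factor, did not reach 1 FPKM in any group. The 7 members summed to 32.3 FPKM in control_IgG and 41.4 FPKM in control_AGO, and to 24.9 FPKM in miR143_IgG and 20.4 FPKM in miR143_AGO. SPI1 made up 59.3%, 74.1%, 48.0% and 50.6% of these sums in the same order. The 6 members other than SPI1 summed to a narrower range, from 10.1 FPKM in miR143_AGO to 13.2 FPKM in control_IgG.

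SPI1 was at 19.1 FPKM in control_IgG and 30.7 in control_AGO, and at 12.0 in miR143_IgG and 10.3 in miR143_AGO. Both groups of miR-143 cells were thus below both groups of control cells, and the order of neighbouring groups has no spread to set it against. Among coding rows above 0, SPI1 stood at the 71.3rd, 89.2nd, 70.8th and 75.2nd percentile in the same order. Its value was between 36.5 and 722 times the low edge of its group for a transcript of its length, so that it does not rest on the lowest values. As a share of the coding sum, SPI1 took 0.00857% (IgG) and 0.0198% (AGO) in control cells, and 0.00550% (IgG) and 0.00674% (AGO) in miR-143 cells. On this scale the AGO value of miR-143 cells lies above their IgG value, the reverse of the order in FPKM.

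CEBPB was the other member at or above 1 FPKM in all groups, with a more even level than SPI1. It was at 5.86 FPKM in control_IgG, 7.40 in control_AGO and, in miR-143 cells, 4.87 in miR143_IgG and 7.21 in miR143_AGO, and its highest value was 1.52 times its lowest. Both AGO values were above both IgG values. The ratio of SPI1 to CEBPB was 3.27 in control_IgG, 4.15 in control_AGO and, in miR-143 cells, 2.46 in miR143_IgG and 1.43 in miR143_AGO. The antisense transcript CEBPB-AS1 was listed at 0 in both IgG groups and was at 0.336 FPKM in control_AGO, against 0.112 FPKM in miR143_AGO, far below CEBPB.

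CEBPA was listed at 0 in control_IgG and was at 0.0226 FPKM in control_AGO. In miR-143 cells it was at 0.453 FPKM in the AGO and 0.0341 FPKM in the IgG precipitate. The values in control_AGO and miR143_IgG lie at the low edge of their groups (0.997 and 0.958 times the edge), and the value in miR143_AGO is 21.5 times the edge. CEBPA was therefore highest in the AGO precipitate of miR-143 cells, but below the 1 FPKM that a row needed in order to be compared. The row that joins CEBPA-AS1 with CTD-2540B15.9 was listed at 0 in control_IgG, control_AGO and miR143_IgG and was at 0.437 FPKM in miR143_AGO. The row name CEBPA-DT does not occur in the tables. Whether reads of the introduced C/EBPα coding sequence enter the CEBPA row was not tested.

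CEBPD, on the minus strand of chromosome 8 (47736909-47739086), was listed at 0 in control_IgG, the shallowest group, and was at 0.925 FPKM in miR143_IgG. In the AGO precipitates it was at 1.28 FPKM without and 1.25 FPKM with miR-143. The AGO groups thus held nearly the same level. CEBPE was at 2.12 FPKM in control_IgG and listed at 0 in the other 3 groups. That value is 4.48 times the low edge of control_IgG, the smallest multiple of any member at or above 1 FPKM, and a group with an edge this high can list a gene from few fragments.

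CEBPG was at 2.00 FPKM in control_IgG, 0.884 in control_AGO and, in miR-143 cells, 4.04 in miR143_IgG and 1.17 in miR143_AGO. Both IgG values were above both AGO values, the opposite of CEBPB. CEBPZ was at 3.18 FPKM in control_IgG, 1.12 in control_AGO and, in miR-143 cells, 3.11 in miR143_IgG and 0.0127 in miR143_AGO. It was level between the IgG groups and at the low edge (0.794 times) in miR143_AGO, the deepest group. CEBPZOS, which overlaps it on the other strand, was listed at 0 in control_IgG and was at 4.42 FPKM in miR143_IgG, beside 0.469 FPKM in control_AGO and 0.764 FPKM in miR143_AGO.

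**Figure D1:**
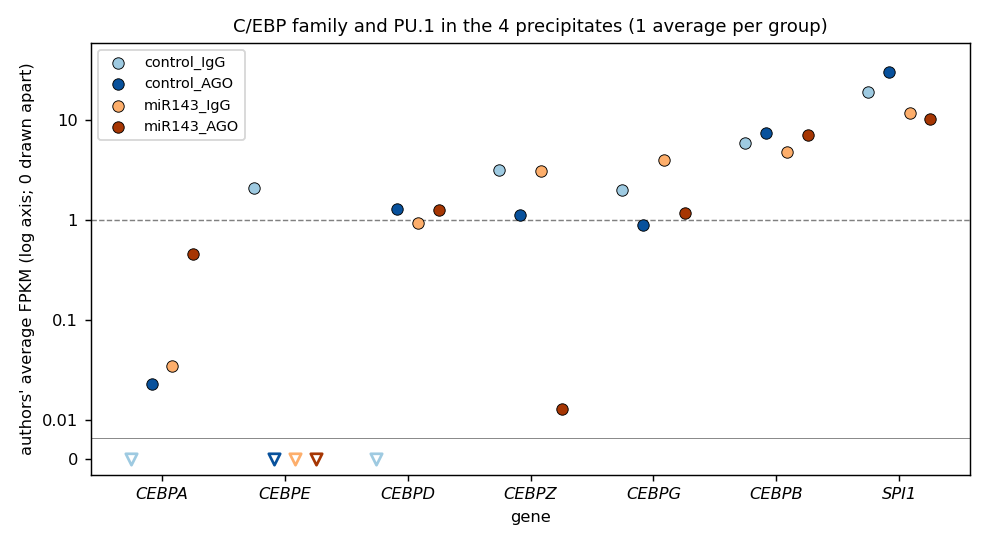
The authors' average FPKM of each member (log axis) in the 4 groups, 1 point per group, with values listed at 0 drawn as open triangles under the axis break and 1 FPKM as a dashed line. SPI1 lies between 10.3 and 30.7 FPKM and CEBPB between 4.87 and 7.40 FPKM in all groups, while CEBPA stays under 1 FPKM and CEBPE is above 0 only in control_IgG.

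Which members were enriched with AGO2 was asked first in control cells, by the log2 ratio of FPKM + 1 in AGO over FPKM + 1 in IgG, over rows that reached 1 FPKM in either group. This ratio understates differences of low genes. SPI1 had a log2 ratio of 0.65 and CEBPB of 0.29 (61.6th and 56.7th percentile of the 9919 rows compared), while CEBPG was at −0.67 and CEBPZ at −0.98. Of 6 members compared, 0 passed the 10-fold threshold that the study used, against 9.36% of all rows in either direction. In a ratio of 2 groups only SPI1 was high enough to pass it. The other members reached at most 7.40 FPKM in any group, too low for 10-fold once 1 is added to each value. For them the outcome was fixed beforehand and says nothing about their enrichment. Past 2-fold, 1 member was higher (CEBPD, against 34.5% of all rows) and 1 lower (CEBPE, against 36.2%), and each of these has a value of 0 on 1 side. Under each of the 3 scalings SPI1 was also past 2-fold, which made 3 members. The median of the members was −0.19, and that of all rows −0.19.

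In miR-143 cells, CEBPB had a log2 ratio of AGO over IgG of 0.48, CEBPD of 0.23 and SPI1 of −0.20. CEBPG (−1.21) and CEBPZ (−2.02) were the 2 of 5 members past 2-fold, both lower in AGO, against 33.5% of all 10643 rows. CEBPG was no longer past 2-fold with the same upper quartile (−0.98) or the same coding sum (−0.88). None was past 2-fold higher, against 26.6% of all rows, and 0 were past 10-fold, against 5.27%. Again only SPI1 was high enough to pass 10-fold. Of all rows past 2-fold, 44.2% were higher in AGO, and 56.8% once the groups had the same coding sum. The medians were −0.20 for the members and −0.22 for all rows. CEBPB was thus above 0 and CEBPG and CEBPZ were below 0 in both cell populations, and this did not change when the groups were scaled to the same median, upper quartile or coding sum. SPI1 was above 0 in control cells, at 0.65 as deposited and at 1.07 to 1.20 over these scalings. In miR-143 cells its sign depended on them, from −0.20 as deposited to 0.27.

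Between the AGO precipitates, the study's main contrast, SPI1 was the member with the largest difference among those well above the low edge. It was at 30.7 FPKM in control_AGO, against 10.3 FPKM in miR143_AGO, a log2 ratio of −1.48, or 2.80-fold lower with miR-143 on the scale of FPKM + 1. This was the 7.21st percentile of 9798 rows compared, and over the 3 scalings the ratio lay between −1.68 and −1.40. CEBPZ had a log2 ratio of −1.07 (12.8th percentile), with its value in miR143_AGO at the low edge. CEBPB (−0.03) and CEBPD (−0.01) were level, each changing sign under a scaling, and CEBPG was at 0.20. SPI1 and CEBPZ were thus the 2 of 5 members more than 2-fold lower, against 14.1% of all rows, and 0 were more than 2-fold higher, against 17.7%. None passed 10-fold, which only SPI1 was high enough to do, against 1.03% of all rows. The median of the members was −0.03 and that of all rows 0.17.

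The same contrast between the mock precipitates gives the difference without the AGO2 antibody. SPI1 was at 19.1 FPKM in control_IgG and 12.0 FPKM in miR143_IgG, a log2 ratio of −0.64 (33.6th percentile of 10172 rows), in the same direction as between the AGO precipitates. CEBPB was at −0.23 and CEBPZ at −0.02, with a sign that depended on the scaling, and CEBPG was at 0.75. Of 5 members compared, 1 was more than 2-fold lower (CEBPE, listed at 0 in miR143_IgG), against 26.8% of all rows. None was more than 2-fold higher, against 36.2%, and none past 10-fold, against 8.87%. Here too, SPI1 alone was high enough to pass 10-fold. The medians were −0.23 for the members and 0.17 for all rows.

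In the IgG-corrected ratio, which divides the enrichment over IgG in miR-143 cells by that in control cells, SPI1 was at −0.85 as deposited and lay between −1.30 and −0.89 over the scalings, past 2-fold with the same median. CEBPB was at 0.19, with a sign that depended on scaling, CEBPG at −0.54 and CEBPZ at −1.05. Of 6 members, 1 was more than 2-fold lower (CEBPZ, against 33.5% of 11914 rows) and 1 more than 2-fold higher (CEBPE, against 29%), the latter only through its value in control_IgG. None passed 10-fold, against 10.3% of all rows. The median was −0.69 for the members and −0.09 for all rows. The 5 comparisons share groups, so that they are not separate evidence, and no test of these counts was made.

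**Figure D2:**
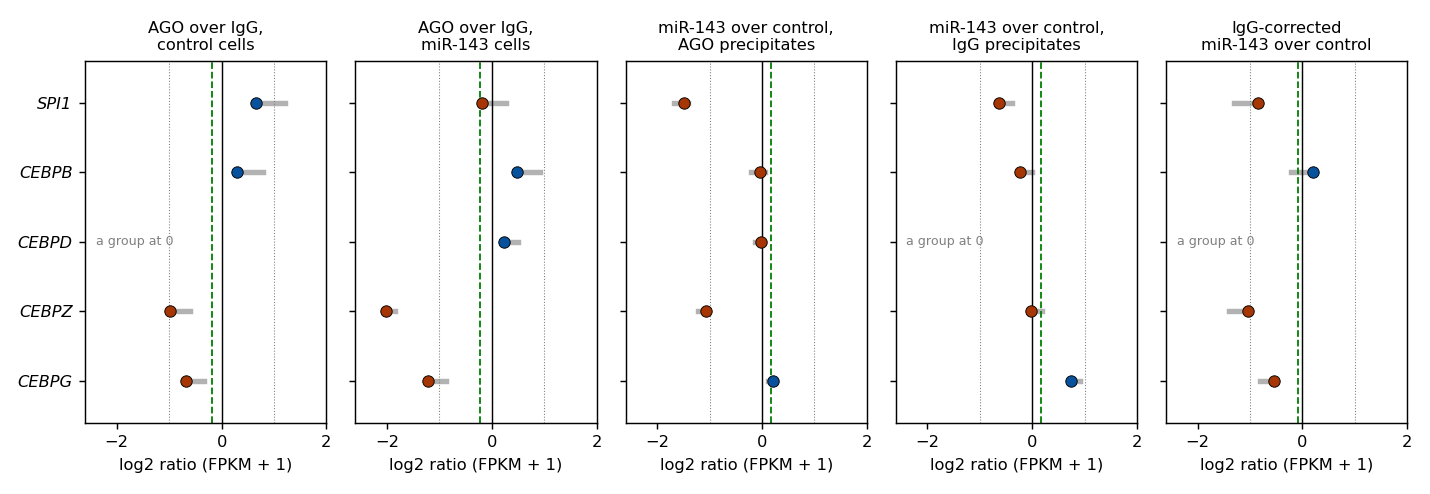
Log2 ratio of FPKM + 1 of 5 members in the 5 comparisons, with a point for the values as deposited (blue above 0, brown below 0) and a grey bar for the range over these values and the 3 scalings, dotted lines at a 2-fold difference and a dashed green line at the median of all rows. Where a group was at 0 no ratio is drawn, and CEBPA and CEBPE are left out, being below 1 FPKM or at 0 in most groups. SPI1 is at −1.48 between the AGO precipitates, and CEBPB is within 0.48 of 0 in all 5 panels as deposited.

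**Figure D3:**
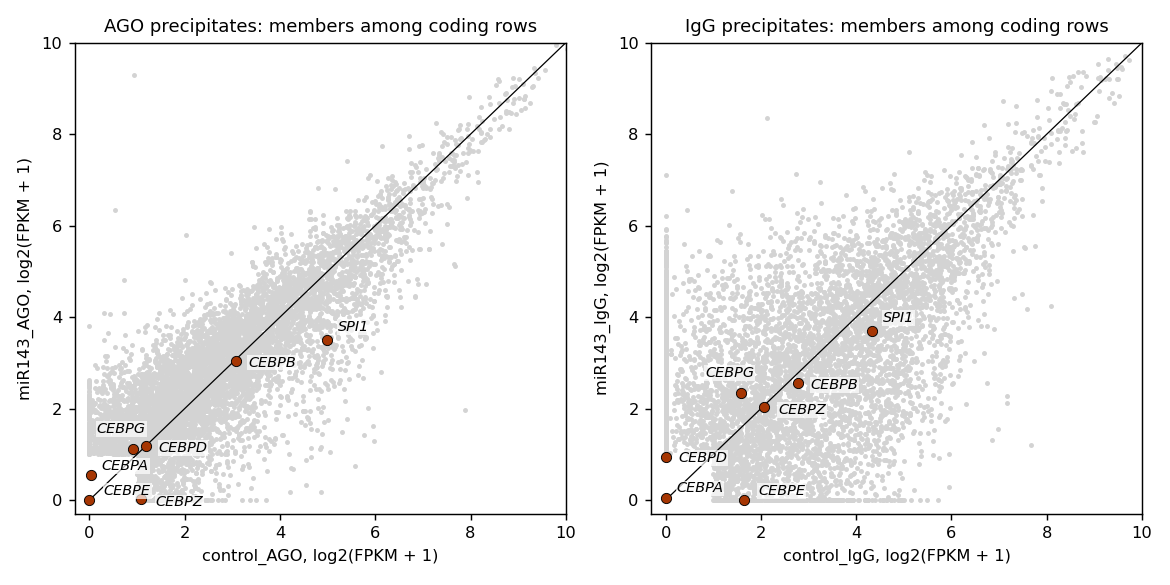
Log2(FPKM + 1) of control against miR-143 cells in the AGO precipitates (left) and the IgG precipitates (right), with coding rows of 1 FPKM or more in either group in grey, the 7 members in brown and the line of equal values in black (rows above 10 are outside the axes). SPI1 lies below the line in both panels, CEBPB lies on it on the left, and CEBPZ lies at the bottom on the left and on the line on the right.

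The rows with the pattern most like each member were found by the Euclidean distance of log2(FPKM + 1) over the 4 groups, among 15504 rows. For SPI1 the nearest were PFKL (distance 0.55), GORASP1 (0.59) and DOLPP1 (0.63), and 0 rows lay within 0.5. GORASP1 was at 24.6, 41.6, 11.8 and 12.1 FPKM in the order control_IgG, control_AGO, miR143_IgG, miR143_AGO. CEBPZ had 1 row within 0.5 (RCN2, 0.42), followed by TBC1D8B (0.50) and SH3D19 (0.55). CEBPB was nearest to WASF2 (0.27), DHRS13 (0.28) and ZNF346 (0.34), with 8 rows within 0.5. Rows near CEBPG included RNF168 (0.28) and EEF1A2 (0.37), with 14 rows within 0.5. CEBPD was nearest to KBTBD6 (0.14), SMARCA2 (0.16) and DENND1B (0.23), with 58 rows, and CEBPE to PXDN (0.012), SHOX2 (0.015) and MATN3 (0.038), with 55 rows, all 3 of them also above 0 in control_IgG alone. Distances are smaller at low levels, so that they describe each member and do not rank the members.

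Among the partners of PU.1, GATA1 was above SPI1 in all 4 groups. This erythroid factor, which PU.1 opposes, was at 55.3 FPKM in control_IgG, 73.2 in control_AGO and, in miR-143 cells, 52.0 in miR143_IgG and 62.3 in miR143_AGO. It was 2.89, 2.39, 4.35 and 6.04 times the level of SPI1 in the same order, the largest multiple being in miR143_AGO. GATA2, a factor of stem and progenitor cells, was at 20.8, 158, 10.4 and 85.3 FPKM, with log2 ratios of AGO over IgG of 2.87 in control and 2.92 in miR-143 cells. RUNX1, which activates SPI1 in blood progenitors, was at 46.7 FPKM in miR143_IgG and between 5.03 and 7.51 FPKM in the other groups, which put it past 10-fold in the IgG-corrected ratio (−3.34). Of the 16 unjoined rows of ETS relatives and PU.1 partners, 6 were at 0 in all groups, among them IRF4 and IRF8, the interferon regulatory factors that bind DNA with PU.1. In the AGO pair 1 of 8 rows compared was more than 2-fold higher and 2 were lower (17.7% and 14.1% of all rows), with a median of −0.50, against 0.17 over all rows. For AGO over IgG, 3 of 8 rows were more than 2-fold higher and 0 lower in control cells (34.5% and 36.2% of all rows), and 2 of 7 were higher and 1 lower in miR-143 cells (26.6% and 33.5% of all rows). SPIB, a close relative of SPI1, is in a row joined with POLD1 and was given no value.

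Of the bZIP genes, whose products can pair with C/EBP proteins, ATF4 and DDIT3, both of the stress response, had more signal in IgG than in AGO precipitates. ATF4 was at 89.4 FPKM in control_IgG, 39.6 in control_AGO and, in miR-143 cells, 61.5 in miR143_IgG and 35.0 in miR143_AGO, and DDIT3, which encodes the C/EBP relative CHOP, was at 17.3, 7.48, 17.2 and 9.14 FPKM. JUND was at 20.6, 44.9, 51.4 and 29.2 FPKM. The FOS relatives FOSL1 and FOSB passed 10-fold for AGO over IgG, FOSL1 in both cell populations and FOSB in control cells only. FOSL1 was listed at 0 in control_IgG and was at 22.4 FPKM in control_AGO, 0.343 in miR143_IgG and 14.3 in miR143_AGO, a log2 ratio of AGO over IgG of 3.51 in miR-143 cells. FOSB was listed at 0 in both IgG groups and was at 9.42 FPKM in control_AGO, against 0.209 FPKM in miR143_AGO. The log2 ratio between these AGO values was −3.11, short of 10-fold. Between the AGO precipitates 1 of 12 rows compared was more than 2-fold higher and 2 were lower (17.7% and 14.1% of all rows), with a median of −0.39. For AGO over IgG, 8 of 12 rows were more than 2-fold higher and 3 lower in control cells (34.5% and 36.2% of all rows), and 4 of 12 were higher and 1 lower in miR-143 cells (26.6% and 33.5% of all rows).

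Regulators of C/EBP and PU.1 mRNA or protein held several genes with high AGO values. E2F1, which C/EBPα represses during granulocytic differentiation, was at 1.03 FPKM in control_IgG, 34.0 in control_AGO and, in miR-143 cells, 0.793 in miR143_IgG and 26.1 in miR143_AGO, with log2 ratios of AGO over IgG of 4.11 and 3.92. CELF1 and CALR encode RNA-binding proteins described as acting on C/EBP translation. CELF1 was at 19.0, 66.2, 8.20 and 64.0 FPKM, and CALR at 126, 78.9, 125 and 64.5 FPKM. TRIB3, of the Tribbles family, was at 26.9, 44.9, 16.1 and 58.1 FPKM. ID2, an inhibitor of basic helix-loop-helix factors, was listed at 0 in control_IgG and was at 2.69 FPKM in miR143_IgG, beside 31.2 FPKM in control_AGO and 9.06 FPKM in miR143_AGO. The RNA-binding protein gene MSI2 was at 23.9, 2.81, 1.55 and 11.4 FPKM, which put it past 10-fold higher in the IgG-corrected ratio (4.99). Between the AGO precipitates 3 of 14 rows were more than 2-fold higher and 1 was lower (17.7% and 14.1% of all rows), with a median of 0.33. For AGO over IgG, 5 of 14 were more than 2-fold higher and 4 lower in control cells (34.5% and 36.2% of all rows), and 6 of 14 were higher and 4 lower in miR-143 cells (26.6% and 33.5% of all rows).

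The list of target genes of C/EBP and PU.1 in granulocytes and monocytes held many rows at 0, as did coding rows in general. The list has 38 unjoined rows, in which SPI1 itself is included and AZU1, ELANE, PRTN3 and NCF4 have a pair of rows each. Of these rows, 22 (57.9%) were at 0 in all groups, against 42.7% of 17834 coding rows. The 22 include both rows of ELANE and of NCF4, and a row each of PRTN3 and AZU1, whose other rows were above 0 in an AGO group. The share of genes at 0 is therefore lower than that of rows. At 1 FPKM or more in all groups were 4 rows (SPI1, CD33, CYBA and ITGAM). The rows at 0 in all groups include MPO, ELANE, LTF, CAMP, LCN2, S100A8, S100A9, CSF1R and CD14, the usual markers of granule formation and of monocytes. CYBA, a subunit of the NADPH oxidase, was at 517 FPKM in control_IgG, 72.7 in control_AGO and, in miR-143 cells, 305 in miR143_IgG and 71.6 in miR143_AGO. CD33, a myeloid surface antigen, was at 67.7, 31.8, 31.3 and 25.4 FPKM. PRTN3, the gene of proteinase 3, a granule protease, was listed at 0 in both IgG groups and was at 7.86 FPKM in control_AGO, against 13.9 FPKM in miR143_AGO. LYZ, CTSS, CSF2RA, CSF3R and ITGAM were picked after their values had been seen. In the same order of groups, LYZ was at 6.27, 0, 1.20 and 0.636 FPKM. CTSS was at 0.291, 1.12, 1.57 and 3.22 FPKM, and CSF2RA at 0, 0, 0 and 4.70 FPKM. CSF3R, the G-CSF receptor and a target of C/EBPα and PU.1, was at 1.96, 3.85, 0 and 1.05 FPKM, and ITGAM, which encodes CD11b, was at 4.66, 10.7, 7.10 and 13.0 FPKM. The log2 ratio of miR-143 over control for ITGAM was 0.26 between the AGO and 0.52 between the IgG precipitates. The median of all rows was 0.17 in each of these contrasts. CSF3R and CD33 were lower in both contrasts, and CTSS was higher in both. CYBA was level between the AGO (−0.02) and lower between the IgG precipitates (−0.76). In the AGO pair 2 of 11 rows compared were more than 2-fold higher and 3 were lower (17.7% and 14.1% of all rows), SPI1 among the latter, with a median of 0.26. For AGO over IgG, 3 of 9 were more than 2-fold higher and 3 lower in control cells (34.5% and 36.2% of all rows), and 5 of 11 were higher and 1 lower in miR-143 cells (26.6% and 33.5% of all rows).

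Erythroid markers, by contrast, were present in each precipitate. Of 13 unjoined rows, 1 was at 0 in all groups, 10 were at 1 FPKM or more in all groups, and the sum of the 13 rows was 638 FPKM in control_IgG, 1536 in control_AGO and, in miR-143 cells, 688 in miR143_IgG and 1640 in miR143_AGO. KLF1, the erythroid Krüppel-like factor, was at 41.9, 281, 42.8 and 289 FPKM. The glycophorin genes GYPC and GYPB were at up to 554 and 572 FPKM. The row at 0 was AHSP. The median log2 ratio of the erythroid rows in the AGO pair was 0.04, with 2 of 11 rows more than 2-fold higher and 1 lower (17.7% and 14.1% of all rows), beside the −1.48 of SPI1. For AGO over IgG, 6 of 11 were higher by this measure and 1 lower in control cells (34.5% and 36.2% of all rows), and 5 of 11 were higher and 2 lower in miR-143 cells (26.6% and 33.5% of all rows). Markers of other blood cells were at 0 in all groups in 10 of 17 rows, and their sum was 0, 8.77, 10.5 and 11.6 FPKM. The highest were ITGA2B of megakaryocytes (8.77 FPKM in control_AGO and 10.5 FPKM in miR143_AGO) and, in miR143_IgG only, NCAM1 (5.26 FPKM) and the T-cell gene CD3D (4.95 FPKM). MS4A1, CD79A, CD79B and PAX5 of B cells, which also express SPI1, were at or under 0.714 FPKM in all groups. The part of cell composition in the SPI1 difference was not tested.

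**Figure D4:**
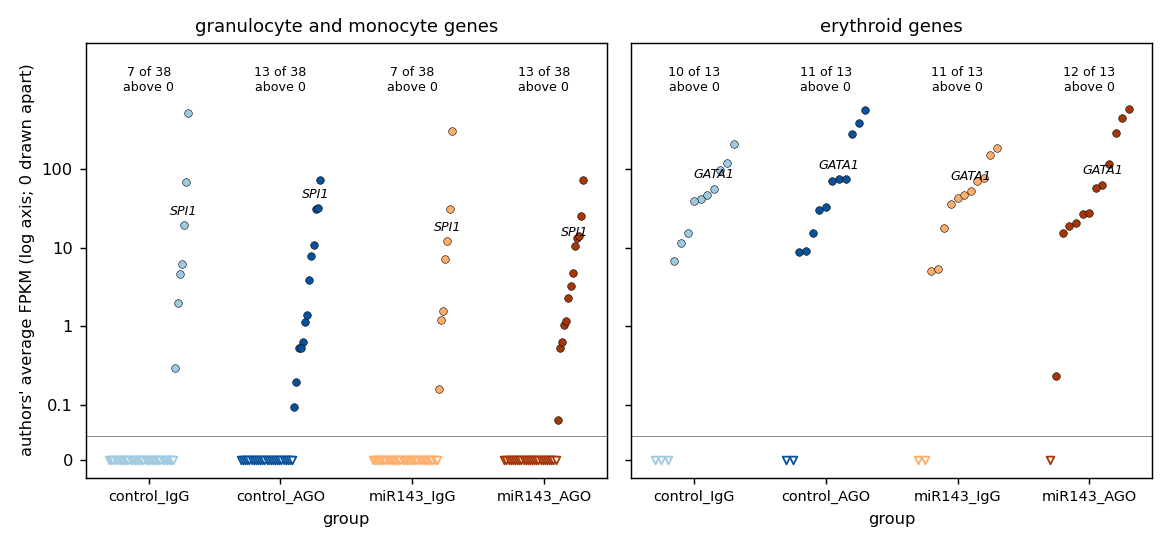
FPKM (log axis, 0 drawn apart as open triangles) of the unjoined rows of the granulocyte and monocyte list (left, 38 rows) and of the erythroid list (right, 13 rows) in the 4 groups, sorted by level within each group, with SPI1 and GATA1 named. In the IgG groups 7 of 38 and in the AGO groups 13 of 38 granulocyte and monocyte rows were above 0, against 10 to 12 of 13 erythroid rows and 35.5% to 51.3% of all coding rows.

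GAPDH, which the study used as a non-binding control, was at 566 FPKM in control_IgG, 467 in control_AGO and, in miR-143 cells, 584 in miR143_IgG and 522 in miR143_AGO. MAPK7, which holds the miR-143-3p site shown above, was at 6.69 FPKM in control_IgG, 36.9 in control_AGO and, in miR-143 cells, 0.0988 in miR143_IgG and 14.2 in miR143_AGO. The value in miR143_IgG is 4.78 times the low edge of its group. The log2 ratio of MAPK7 was −1.32 between the AGO precipitates and −2.81 between the IgG precipitates, and 2.30 and 3.79 for AGO over IgG in control and miR-143 cells. The IgG-corrected log2 ratio of MAPK7 was thus 1.48, and that of SPI1 was −0.85. As plain ratios of FPKM, without the added 1, these were 25.9 and 0.539. The ratio of MAPK7 rests on its low value in miR143_IgG. Both genes were lower in miR143_AGO than in control_AGO. The study reported the mRNA of ERK5, the product of MAPK7, as enriched in its AGO-RIP of miR-143 cells. It did so by sequencing and by semiquantitative PCR, the latter against both control cells and IgG. Against control cells, the average FPKM of MAPK7 goes the other way (36.9 in control_AGO, 14.2 in miR143_AGO). The study also reported binding to the ERK5 3′ UTR in a luciferase assay, which was not examined here. Whether the miR-143-3p site of MAPK7 has a part in its FPKM values was not tested.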

How the data were processed

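RNA of AGO and IgG precipitates was sequenced from 12 samples in 4 groups of 3, grouped by sample title. The authors deposited 1 average FPKM per gene row and group, made with TopHat and Cufflinks on hg38 per the labels. Tool versions and annotation are not given in the sources used here. The labels describe Ribo-Zero rRNA removal and paired-end reads, the methods a TruSeq kit. As no values per replicate or fragment counts could be used, ratios of averages replaced the test planned for replicates: log2 of FPKM plus a pseudocount of 1, over rows of at least 1 FPKM in a group compared. Joined rows were kept apart. The low edge used rows of genes with 1 transcript of at least 500 bases. Depth is otherwise unknown. Alternatives were pseudocounts of 0.1 and 0.01, 3 scalings, no filter, a mean of at least 5 FPKM, summed names and joined rows left out. The scripts, tested on simulated data, used Python 3.11.15, numpy 2.4.6 and pandas 2.3.3. Genes named are the 7 members, list genes past 10-fold or among the 3 highest of a list, overlapping transcripts, the 3 nearest rows, GAPDH, MAPK7 and MIR143, and any named for being at 0 or picked later; a few genes this rule names are not reported here. Members and lists were chosen with earlier results of these data known. Positions and 3′ UTRs came from GENCODE 29.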

Additional observations from a re-analysis of the deposited data

How the results depend on the processing

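No paired analysis was possible because the tables hold 1 average per group, and for the same reason no replicate could be left out; both had been planned. None of the ratios past 2-fold changed direction. With pseudocounts of 0.1 and 0.01 alike, the members past 10-fold numbered 3 in the IgG-corrected ratio, 2 for the enrichment over IgG of control cells, 1 for that of miR-143 cells, and 1 each between the AGO and between the IgG precipitates, against 0 in each with 1; these are CEBPD, CEBPE and CEBPZ, each with a value at 0 or at the low edge, and with 0.1 the share of all rows past 10-fold was itself between 10.6% (AGO pair) and 36.7%. Members past 2-fold in control cells went from 2 to 4 with both, and between the IgG precipitates from 1 to 2 with 0.01. Each scaling gave 3 instead of 2 for AGO over IgG in control cells through SPI1. Scaling to the same upper quartile or coding sum left 1 instead of 2 in miR-143 cells (without CEBPG), and scaling to the same median gave 4 instead of 2 in the IgG-corrected ratio (SPI1 and CEBPD added). With a mean of at least 5 FPKM, 1 was left in the AGO pair (SPI1) and 0 in the other 4 comparisons, since few members are then tested. Scaling moved the median of all rows by up to 0.48 (AGO over IgG in control cells, same median). It changed the sign of 3 member ratios of 27 with the same median, 4 with the same upper quartile and 2 with the same coding sum. The low edge of control_IgG over miR143_AGO was 14.3 with the 100th lowest product. Values at 0 or near the low edge of a group limit what can be said of CEBPA, CEBPD, CEBPE and CEBPZ.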
